A study of Mus musculus with 2 samples.

Results

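The 8 genes described here were grouped under the synthesis and transport of polyunsaturated fatty acids, and were read in mouse liver. They are the fatty acid elongase genes Elovl1, Elovl2, Elovl3 and Elovl5 and the front-end desaturase genes Fads1 and Fads2. The others are the lysophospholipid transporter gene Mfsd2a and the phospholipid acyltransferase gene Lpcat3. Of the elongases, Elovl1 and Elovl3 act on saturated and monounsaturated chains. All 8 genes were chosen by name as members of this group, with earlier results of these data known. Probes were assigned through the RefSeq accession that each carries, and the genes are 8 of 20283 named on the array. Elovl1 had 2 probes and each of the other genes had 1, so that 9 of 55681 probes were used, each printed in 1 spot.

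Mammals build long polyunsaturated chains such as arachidonic acid and docosahexaenoic acid (DHA) from dietary linoleic and alpha-linolenic acid, by alternating desaturation and elongation at the endoplasmic reticulum and a final shortening in peroxisomes. The liver is a main site of this synthesis and sends the products to other tissues in lipoproteins and as lysophospholipids. In the fed liver the desaturase and elongase genes are known targets of the insulin-driven factor SREBP-1, and the fasting receptor PPARα is known to act on several of them.

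Liver RNA was compared between CREBH knockout (KO) and wild-type (WT) mice after a 24 h fast and with free access to food. CREBH is a transcription factor of liver cells, made from Creb3l3 and tethered to the endoplasmic reticulum until fasting frees it. There were 4 pools, each measured once: fasted CREBH KO, fasted WT, fed CREBH KO and fed WT, where WT is C57B6J and the KO is a CREBH null on a C57B6J background. Total RNA of each group was pooled. The number, age and sex of the mice behind a pool are not stated in the labels. The 2 arrays were two-colour arrays, 1 per feeding state, with KO RNA in the Cy5 channel and WT RNA in the Cy3 channel on both, so a dye swap is lacking and dye and genotype cannot be told apart. With 1 pool per group there was no replicate check and no test was run. Genes are described by size, and a difference of at least 2-fold (1.0 on the log2 scale) was called higher or lower. The number of arrays limits the precision. Signals are background-corrected and normalized intensities in arbitrary units, comparable between pools for 1 probe and not between probes.

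Of 59305 gene spots, between 39.9% and 45.9% per channel were well above background by the scanner software. All 9 probes were well above background in all 4 pools, and none was saturated or marked as an outlier. For probes printed in 10 spots, the median SD of a log2 ratio between spots was 0.08 fasted (258 probes) and 0.09 fed (235 probes), a spread that leaves out mice, pooling and labelling. Creb3l3, the targeted gene, had normalized signals of 7925 in fasted KO, 33362 in fasted WT, 8873 in fed KO and 16354 in fed WT liver. Its log2 KO over WT ratio was -2.07 fasted and -0.88 fed, the fed one turning to 0.31 when the arrays were centred on all spots, that is with the median log2 ratio of all gene spots set to 0 in place of loess. No label places its probe inside or outside the deleted part, so the signal left in KO liver cannot check the allele. The 7 hepatocyte marker genes (Alb, Ttr, Cps1 and others) were well above background in all pools, with summed signals of 689223 in fasted KO, 644999 in fasted WT, 622706 in fed KO and 609072 in fed WT liver. In such bulk RNA, fewer cells of a type and less RNA per cell cannot be told apart.

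The fasted livers differed most in these genes. Of the 8 genes, 4 were at least 2-fold lower in fasted KO than in fasted WT liver (Mfsd2a, Elovl2, Fads2 and Elovl5), none was 2-fold higher, and the median log2 ratio was -1.36. With centring on all spots, which lifted the median of all measured genes to 0.57, Elovl1 was 2-fold higher as well (1.13). The median of the 8 genes was then -0.56. Of all 12262 genes measured in that comparison, 0.791% were at least 2-fold apart, 0.432% lower and 0.359% higher, with a median of 0.01. Mfsd2a had the third lowest log2 ratio of those 12262 genes, Elovl2 the sixth, Fads2 the eleventh and Elovl5 the thirteenth, places that describe these pools and are no test. The 4 ratios kept at least 2-fold under all 8 other ways of processing the spots that were tried. Changing only the filter on dim probes or the averaging of probes cannot move a gene with 1 probe in 1 spot. The authors' deposited table repeats the scanner software's ratios, so fewer than 8 of these are separate checks.

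**Figure D1:**
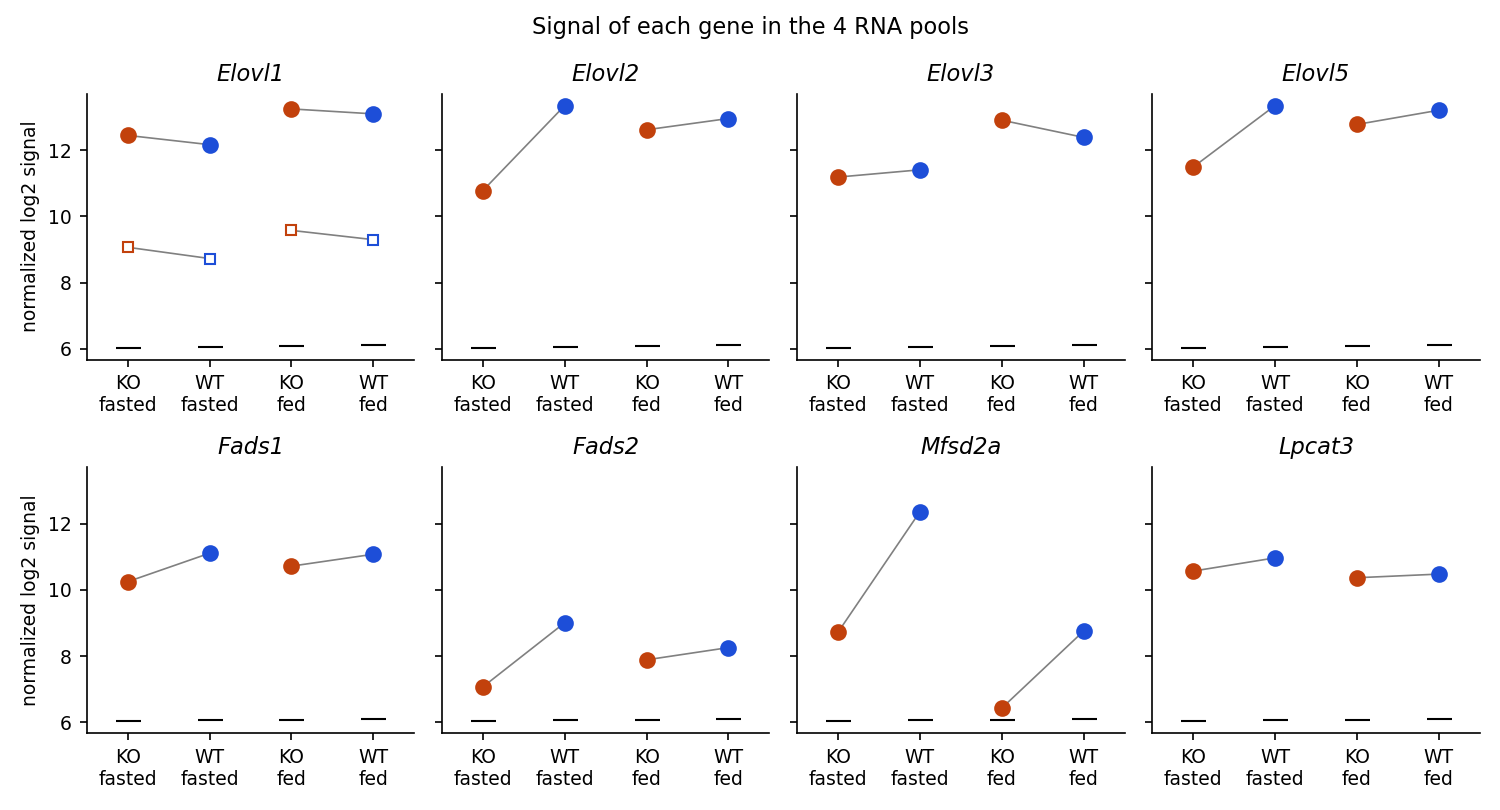
Normalized log2 signal of each gene in the 4 pools, in the order fasted KO, fasted WT, fed KO and fed WT, with 1 panel per gene. Red is KO and blue WT, lines join the 2 pools of an array, filled circles are the probe used for the gene, open squares the second Elovl1 probe, and black dashes the lowest signal well above background in each channel. Elovl2, Elovl5, Fads1 and Fads2 were lowest in fasted KO liver, whereas Mfsd2a was lowest in fed KO liver, at 6.43 against a floor of 6.08.

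Among the elongases, Elovl2 and Elovl5, which lengthen polyunsaturated chains, stood apart from Elovl1 and Elovl3, which act on saturated and monounsaturated chains. Elovl2, needed for the last lengthening steps towards DHA, had normalized signals of 1757 in fasted KO, 10424 in fasted WT, 6297 in fed KO and 7947 in fed WT liver. Fasted KO liver was thus the 1 low pool, and fasted WT liver the highest. Its log2 KO over WT ratio was -2.57 fasted (5.93-fold lower, -2.60 to -1.73 over the other ways of processing) and -0.34 fed. The scanner software's own ratio was -2.55 fasted, with an error of 0.31 for that spot.

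Elovl5, which lengthens the products of the first desaturation, had the same order of pools. Its signals were 2867 in fasted KO, 10424 in fasted WT, 7015 in fed KO and 9501 in fed WT liver. The log2 ratio was -1.86 fasted (3.64-fold lower, -1.88 to -1.0 over the other ways of processing) and -0.44 fed. For both Elovl2 and Elovl5 the fed difference was under 2-fold and its direction is not settled: with the same centring done on measured genes only it was 0.10 for Elovl2 and 0.01 for Elovl5, and with centring on all spots 0.80 and 0.72. Less the median shift of all measured genes under centring on all spots, these were 0.04 and -0.05.

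Elovl1, an elongase of very long saturated and monounsaturated chains used in sphingolipids, differed little between genotypes. The brighter of its 2 probes had signals of 5590 in fasted KO, 4616 in fasted WT, 9753 in fed KO and 8757 in fed WT liver, log2 0.28 fasted and 0.16 fed. The dimmer probe gave 0.34 fasted and 0.28 fed. Both probes were thus slightly higher in KO liver in both states, below 2-fold, while with centring on all spots Elovl1 passed 2-fold, at 1.13 fasted and 1.32 fed. Less the median shift of all measured genes under that centring, Elovl1 was at 0.57 fasted and 0.56 fed. Elovl3, known from brown fat, skin and liver for very long saturated and monounsaturated chains, had signals of 2336 in fasted KO, 2718 in fasted WT, 7694 in fed KO and 5377 in fed WT liver. Its log2 KO over WT ratio was -0.22 fasted, turning to 0.07 and 0.57 with the 2 ways of centring, and 0.52 fed, or 1.65 with centring on all spots, and the feeding state separated its pools more than the genotype. Less the same shift, the values with centring on all spots were 0.01 fasted and 0.89 fed.

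Of the 2 desaturases, Fads2 was at least 2-fold lower in fasted KO than in fasted WT liver, and Fads1 lay below WT by less than 2-fold. Fads2, which carries out the first and rate-limiting desaturation, had signals of 134 in fasted KO, 517 in fasted WT, 238 in fed KO and 306 in fed WT liver. Again fasted KO liver was the lowest pool and fasted WT liver the highest. The log2 ratio was -1.94 fasted (3.85-fold lower, -2.46 to -1.40 over the other ways of processing) and -0.36 fed. Fads2 was dim, and the offset of 50 used in background correction draws ratios of dim probes towards 0. The scanner software's ratio was -2.46 fasted (error 0.31) and -0.58 fed (error 0.21).

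Fads1, which carries out the second desaturation, had signals of 1220 in fasted KO, 2212 in fasted WT, 1689 in fed KO and 2163 in fed WT liver. Its log2 ratio of -0.86 fasted (1.81-fold lower) did not reach 2-fold, and -0.36 was measured in fed liver. In the fed state the ratios of both desaturases turned positive with centring on all spots, to 0.31 for Fads2 and 0.66 for Fads1. That centring lifted the log2 ratios of measured genes as a whole, by a median of 0.76 fed and 0.56 fasted, and less that shift the fed values were -0.45 for Fads2 and -0.10 for Fads1.

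Mfsd2a, a sodium-dependent importer of lysophosphatidylcholine that carries DHA into brain and other tissues, was lower in KO than in WT liver in both feeding states. Its normalized signals were 421 in fasted KO, 5256 in fasted WT, 86.1 in fed KO and 433 in fed WT liver. Fasted WT liver stood far above the other pools, and fasted KO liver lay close to fed WT liver. The log2 ratio was -3.64 fasted (12.5-fold lower, -3.79 to -2.90 over the other ways of processing). In the fed state it was -2.33 (5.02-fold lower), which made Mfsd2a the only 1 of the 8 genes at least 2-fold lower there, where 0.554% of 11377 genes with a measured ratio reached 2-fold, 0.396% lower and 0.158% higher.

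The size of the fed Mfsd2a difference depended on how background was handled. The fed KO spot had a median signal of 112 over a local background of 72.5, which left 39.0 after subtraction. The fed log2 ratio was -3.83 from the scanner-processed signals and -3.13 with an offset of 10, in place of -2.33. The fasted ratio, from brighter spots, was -3.79 and -3.75 by the same 2 routes. Mfsd2a was at least 2-fold lower in KO liver in both states under every one of the 8 alternatives, not all of which could move its value.

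Lpcat3 puts polyunsaturated chains into lysophospholipids. It did not reach 2-fold in any comparison, except fasted over fed in WT liver with no normalization between arrays (1.04). It had signals of 1521 in fasted KO, 2011 in fasted WT, 1321 in fed KO and 1431 in fed WT liver. The log2 KO over WT ratio was -0.40 fasted and -0.12 fed, and both turned positive with centring on all spots (0.35 and 0.87). Less the median shift of all measured genes under that centring, they were -0.21 fasted and 0.10 fed.

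**Figure D2:**
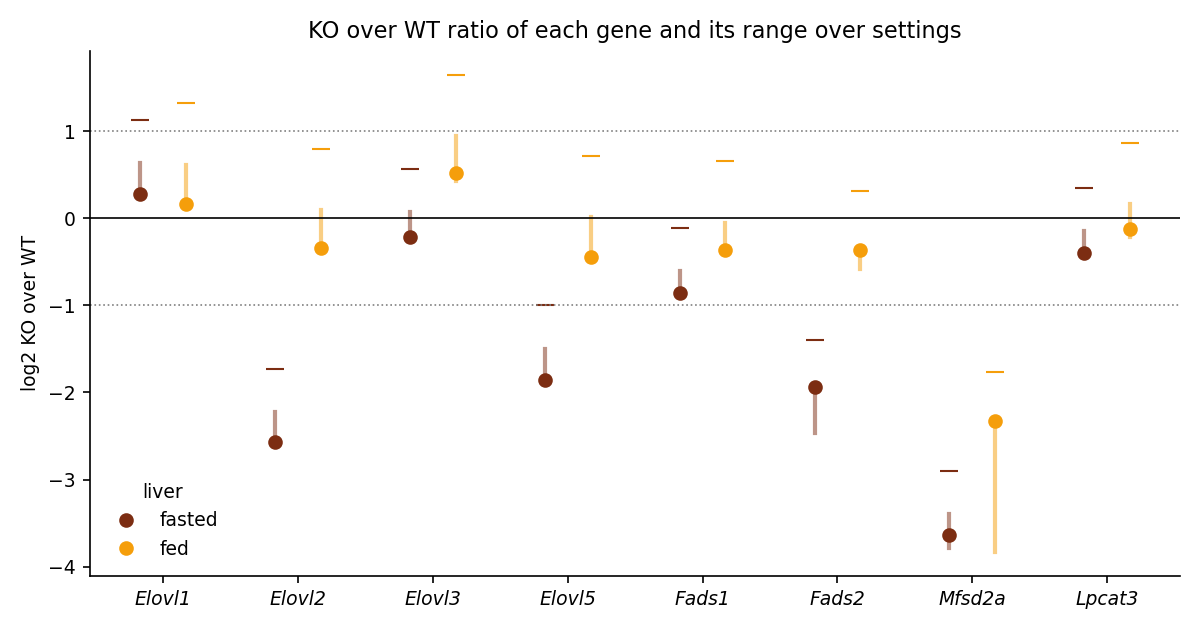
Log2 KO over WT ratio of the 8 genes in fasted (dark) and fed (yellow) liver, with dotted lines at 2-fold. Points are the values reported, bars the range over the other ways of processing except centring on all spots, and dashes the value with centring on all spots. The points and bars of Mfsd2a, Elovl2, Fads2 and Elovl5 lie beyond 2-fold lower in fasted KO liver, and in fed liver only those of Mfsd2a do, while the fed values of Elovl2, Elovl5 and Lpcat3 and the fasted one of Elovl3 cross 0 under both kinds of centring, and the fed values of Fads1 and Fads2 and the fasted one of Lpcat3 under centring on all spots only.

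The start regions of the 4 genes that were at least 2-fold lower in fasted KO liver are shown because they are the genes the genotype difference rests on. Each is the 250 bases before to 50 bases after a RefSeq transcript start in mouse build GRCm38.p6, read 5′ to 3′ on the gene's strand. Entries were at hand for 6 of the 8 genes, and Fads1 and Elovl3 are named only. For Elovl2, which has 2 entries, the outermost start is shown. The only Mfsd2a entry is not at the outermost start of that gene. Capitals mark matches, on either strand, to a CRE half-site (TGACG), the core of the elements that CREB family factors bind, to a nuclear receptor half-site (AGGTCA) or to a CCAAT box (CCAAT).
Mfsd2a, chr4:122961139-122961438, minus strand: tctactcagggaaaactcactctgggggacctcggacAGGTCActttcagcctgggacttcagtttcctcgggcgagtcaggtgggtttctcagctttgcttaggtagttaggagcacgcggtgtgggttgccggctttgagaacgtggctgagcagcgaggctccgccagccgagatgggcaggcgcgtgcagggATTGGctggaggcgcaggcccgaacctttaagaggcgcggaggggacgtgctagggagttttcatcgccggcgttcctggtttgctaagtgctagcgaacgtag
Elovl2, chr13:41220354-41220653, minus strand: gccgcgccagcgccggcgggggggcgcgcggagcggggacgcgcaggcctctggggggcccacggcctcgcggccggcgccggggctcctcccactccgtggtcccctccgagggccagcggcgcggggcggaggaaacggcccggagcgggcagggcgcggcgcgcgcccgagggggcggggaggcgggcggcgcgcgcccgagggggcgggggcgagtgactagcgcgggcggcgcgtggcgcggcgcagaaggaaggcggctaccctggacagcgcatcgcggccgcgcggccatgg
Fads2, chr19:10101454-10101753, minus strand: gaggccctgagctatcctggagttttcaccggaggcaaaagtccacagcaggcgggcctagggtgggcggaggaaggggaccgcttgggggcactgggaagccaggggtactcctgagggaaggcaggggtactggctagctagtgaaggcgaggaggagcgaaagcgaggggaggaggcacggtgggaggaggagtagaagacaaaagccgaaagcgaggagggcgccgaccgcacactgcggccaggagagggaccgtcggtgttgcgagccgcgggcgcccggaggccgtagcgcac
Elovl5, chr9:77917115-77917414, plus strand: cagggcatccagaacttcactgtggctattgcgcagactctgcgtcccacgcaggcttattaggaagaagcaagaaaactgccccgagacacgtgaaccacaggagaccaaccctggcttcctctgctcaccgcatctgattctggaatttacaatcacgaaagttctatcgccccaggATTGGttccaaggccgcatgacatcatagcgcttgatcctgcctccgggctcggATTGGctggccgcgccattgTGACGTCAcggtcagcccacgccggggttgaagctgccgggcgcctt
Elovl5 held 2 overlapping CRE half-sites on opposite strands, which form a palindrome beginning at position 4 after the start, and 2 CCAAT boxes on the minus strand. Of 32851 mouse promoters of the same length, 20.8% held a CRE half-site, 1.8% such a palindrome and 37.4% a CCAAT box. Mfsd2a held 1 nuclear receptor half-site at position -213, as did 16.3% of promoters, and 1 CCAAT box. In the Elovl2 and Fads2 windows none of these letters occurred, and the Elovl2 window was 84.7% G and C, against a median of 52.7% over all promoters. The windows of all 6 genes lay above that median, the lowest being Elovl5 at 57.7%. Among genes that did not reach 2-fold between genotypes, the Lpcat3 window held 4 CCAAT boxes, and of 2 Elovl1 windows 1 held a CCAAT box and the other a nuclear receptor half-site. A match is a stretch of letters and not a bound site, and these windows leave out everything farther from the start.

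Fasted and fed livers were then compared within each genotype, which asks how these genes stand after food withdrawal with and without CREBH. In KO liver, 3 of the 8 genes were at least 2-fold lower fasted than fed (Elovl2, Elovl3 and Elovl5) and 1, Mfsd2a, was at least 2-fold higher, with a median of -0.81. Of 11786 genes measured in both KO pools, 4.68% were at least 2-fold apart, 2.10% lower and 2.59% higher, with a median of 0.01. In WT liver none was 2-fold lower and 1, Mfsd2a, was higher, with a median of 0.26. Of 11442 genes measured in both WT pools, 4.28% were at least 2-fold apart, 1.92% lower and 2.36% higher, with a median of 0.01. Each comparison runs between arrays and rests on the normalization that made the arrays comparable.

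The polyunsaturated elongases and the desaturases lay below their fed level in fasted KO liver, Elovl2 and Elovl5 by at least 2-fold, whereas in fasted WT liver they lay at or above it. The log2 fasted over fed difference of Elovl2 was -1.84 in KO (3.58-fold lower) and 0.39 in WT liver. That of Elovl5 was -1.29 in KO (2.45-fold lower) and 0.13 in WT liver, and with no normalization between arrays the KO value was -0.66, below 2-fold. For Fads2 it was -0.82 in KO and 0.76 in WT liver, and for Fads1 -0.47 in KO, or 0.09 with no normalization between arrays, and 0.03 in WT liver.

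Elovl3 and Elovl1 lay below their fed level in both genotypes, past 2-fold only for Elovl3 in KO liver. Elovl3 differed by -1.72 in KO (3.29-fold lower) and by -0.98 in WT liver, and Elovl1 by -0.80 in KO and -0.92 in WT liver. The dimmer Elovl1 probe gave -0.51 in KO and -0.57 in WT liver. Lpcat3 was at 0.20 in KO and 0.49 in WT liver.

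Mfsd2a was higher in fasted than in fed liver in both genotypes. The log2 difference was 2.29 in KO (4.89-fold higher, the twentieth highest of 11786 genes) and 3.60 in WT liver (12.2-fold higher, the sixth highest of 11442 genes). The KO value again rests on the dim fed KO spot: it was 2.99 with an offset of 10 and 3.63 from the scanner-processed signals, against 3.59 in WT liver from those signals.

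**Figure D3:**
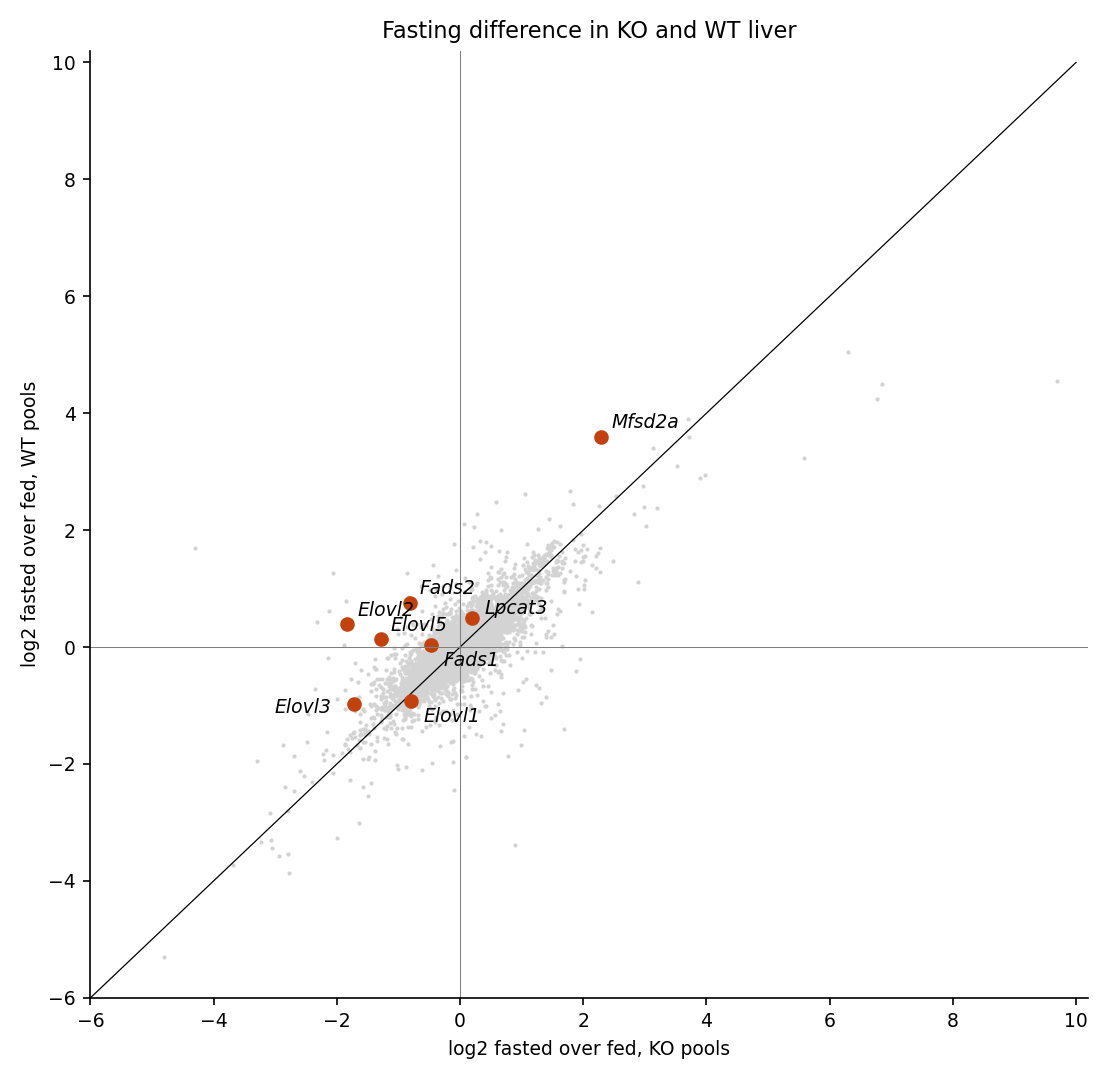
Log2 fasted over fed difference in KO liver (horizontal axis) and WT liver (vertical axis). Grey points are all genes measured in the 4 pools, coloured points the 8 genes described, and the diagonal marks equal differences in both genotypes. Elovl2, Elovl5, Fads2 and Fads1 lie above the diagonal with a negative value in KO and a positive one in WT liver. For Fads1 the WT value is only 0.03, and the KO value is 0.09 with no normalization between arrays.

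The fasted minus the fed log2 KO over WT ratio puts both comparisons together. It was at least 2-fold lower for 4 of the 8 genes: Elovl2 (-2.23), Fads2 (-1.58), Elovl5 (-1.42) and Mfsd2a (-1.31). The median was -1.03. Of 11291 genes measured in all 4 pools, 1.37% were at least 2-fold apart, 0.602% lower and 0.771% higher, with a median of -0.01. Elovl2 had the sixth lowest value, Fads2 the nineteenth, Elovl5 the twenty-sixth and Mfsd2a the thirty-seventh. The values of Elovl2 (-2.54 to -2.23), Fads2 (-1.88 to -1.51) and Elovl5 (-1.72 to -1.42) stayed beyond 2-fold under all 8 alternatives, though not all of these could move them. For Mfsd2a it was 0.04 from the scanner-processed signals and in the authors' deposited table, and -0.63 with an offset of 10, so the data do not settle whether its genotype difference is larger fasted than fed. Elovl3 was at -0.74, Fads1 at -0.50, Lpcat3 at -0.29 and Elovl1 at 0.12, the last turning to -0.20 with centring on all spots.

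The genes whose pattern over the 4 pools was most like theirs were found by the distance between log2 signals, each centred on its own mean, among 11291 genes. For Elovl2 the nearest were the glypican gene Gpc1 (distance 0.35), Tnfaip8l1 (0.40) and Elovl5 (0.53). For Elovl5 they were the cytochrome P450 genes Cyp3a59 (0.47) and Cyp3a16 (0.53), whose probes may share RNA of close relatives, and Elovl2 (0.53). Elovl2 and Elovl5 were thus each among the other's 3 nearest genes. For Fads2 they were Fgd6 (0.24), Cgref1 (0.50) and 1810055G02Rik (0.51). Mfsd2a had no gene as close: the nearest were the lipid droplet gene Cidec (1.99), the metallothionein gene Mt2 (2.31) and Fgf21 (2.39), a fasting hormone gene. A distance over 4 pools is a description of these pools.

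The other enzymes of the elongation cycle were less than 2-fold apart between genotypes. Of all measured genes, 0.791% fasted and 0.554% fed were at least 2-fold apart between genotypes. A short list with none past 2-fold is therefore no trait of that list. Values in the following paragraphs on other genes are from loess-normalized ratios. Centring on all spots would raise KO over WT ratios by amounts that differ between genes, around the medians given above. The fed median of the 7 hepatocyte markers, for example, went from 0.05 to 1.28. Of 6 measured genes for the reduction and dehydration steps (Hsd17b12, Tecr and the Hacd genes), none was 2-fold apart between fasted KO and fasted WT liver, with a median log2 ratio of 0.17 and a range from -0.48 for Tecr to 0.43 for Hacd3. None was 2-fold apart in fed liver either (median -0.11, or up to 0.94 with centring on all spots). Hacd3, a dehydratase gene, was at 1.14 in KO and 0.57 in WT liver for fasted over fed. Elovl6, the elongase that lengthens palmitate, was at -0.09 fasted (log2 KO over WT) and 0.15 fed, and was lower after fasting in both genotypes, by -3.08 in KO and -2.84 in WT liver. Elovl4 and Elovl7 were not well above background in both channels of any comparison.

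Among the other desaturase genes, Scd1, the stearoyl-CoA desaturase that makes monounsaturated chains, was lower in KO than in WT liver, by -1.92 fasted and -0.71 fed. Scd3 was at -1.0 fasted and -0.68 fed by its brighter probe, and at 0.27 and 0.07 by its other probe. The remaining 4 measured genes (Scd2, Fads3, Fads6 and Degs1) lay between -0.11 and 0.22 fasted and between -0.39 and 0.17 fed. Of 5 measured electron donors of the desaturases (cytochrome b5 genes and their reductases), none was 2-fold apart between genotypes in either state. Among all genes the shares were 0.791% fasted and 0.554% fed. After fasting Cyb5b was lower in both genotypes, at -1.06 in KO and -1.45 in WT liver, and Cyb5r3 was at -0.78 in KO and -1.13 in WT liver. The second, dimmer probes were under 2-fold in both genotypes, at -0.37 in KO and -0.90 in WT liver for Cyb5b and at -0.66 in KO and -0.58 in WT liver for Cyb5r3.

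Genes for the peroxisomal steps that shorten the precursor of DHA were less than 2-fold apart between genotypes. Of 11 measured genes none was 2-fold apart fasted (median 0.01) or fed (median -0.10), against 0.791% and 0.554% of all genes. In the fasted minus fed value only Ehhadh passed 2-fold, at 1.03, as did 1.37% of all genes. After fasting 6 of the 11 were at least 2-fold higher in KO and 3 in WT liver, against 2.59% and 2.36% of all genes. The bifunctional enzyme gene Ehhadh was at 3.97 in KO and 2.94 in WT liver, the thiolase gene Acaa1b at 1.92 in KO and 1.62 in WT liver and Acaa1a at 1.20 in KO and 1.11 in WT liver. These 3 genes were thus high in the same fasted KO pool in which Elovl2 and Elovl5 were low relative to fed KO liver.

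Genes for activation, release and phospholipid insertion of fatty acids were less than 2-fold apart between genotypes by the probe used for each. None of 7 acyl-CoA synthetase and fatty acid transport genes, none of 8 lysophospholipid acyltransferase genes and none of 9 phospholipase genes was 2-fold apart between fasted KO and fasted WT liver, with medians of 0.00, 0.03 and 0.12. The lowest of these acyltransferase genes was Lpgat1, at -0.94 fasted, and its 3 probes ranged from -1.09 to -0.78. Of the synthetase and transport genes, 1 was 2-fold higher there from scanner-processed signals, with an offset of 10 and in the authors' table, and 4 with centring on all spots. In fed liver none of 7, none of 9 and none of 7 was 2-fold apart, with medians of -0.06, 0.02 and 0.04. Among all genes 0.791% fasted and 0.554% fed were. Acsl1 and Slc27a2, which activate fatty acids, were higher after fasting in both genotypes: Acsl1 by 1.25 in KO and 1.12 in WT liver, and Slc27a2 by 1.09 in KO and 1.15 in WT liver. Pla2g7, a plasma phospholipase gene, was at 1.60 in KO and 1.56 in WT liver. Mboat7, which belongs to the MBOAT family as Lpcat3 does, had log2 KO over WT ratios of -0.02 fasted and 0.09 fed. Lpcat1, Lpcat2 and Lpcat4, lysophosphatidylcholine acyltransferases of another protein family, were not well above background in both channels of any comparison.

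Among 10 carrier and uptake genes, 1 was at least 2-fold lower and 1 higher in fasted KO than in fasted WT liver. Fabp2, a fatty acid binding protein gene best known from intestine, was at -4.01 fasted and -0.68 fed. Its fasted over fed difference also had opposite signs, at -2.07 in KO and 1.26 in WT liver, and its fasted minus fed value was -3.32. Fabp4, an adipocyte and macrophage fatty acid binding protein gene, was at 1.35 fasted and -0.31 fed. Mfsd2b, a relative of Mfsd2a that exports sphingosine phosphate from blood cells, was at -0.06 fasted and 0.08 fed. Of 7 measured genes of fatty acid oxygenation, 1 was 2-fold apart in each state: the fatty acid hydroxylase gene Cyp4a14 was at 1.36 fasted and -3.77 fed, and its close relatives can share a probe. It was higher after fasting by 9.69 in KO and 4.55 in WT liver. The epoxide hydrolase gene Ephx2 was higher after fasting, by 1.42 in KO and 1.28 in WT liver, and Cyp4f14 lower, by -1.17 in KO and -1.65 in WT liver.

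The known regulators of these genes were then set beside them. Of 20 regulator genes, 1 was 2-fold lower (Creb3l3) and 1 higher in fasted KO than in fasted WT liver: Insig1, which holds SREBP proteins back in the endoplasmic reticulum, at 1.25. Srebf1, which encodes SREBP-1, was at -0.23 fasted and -0.61 fed, and was lower after fasting in both genotypes, by -3.06 in KO and -3.43 in WT liver. Ppara was at -0.74 fasted and 0.06 fed, and its 3 probes ranged from -0.76 to -0.71 fasted and from -0.17 to 0.06 fed. Mlxipl, the gene of the carbohydrate-responsive factor ChREBP, was at -0.15 fasted and 0.32 fed, and lower after fasting by -1.56 in KO and -1.09 in WT liver.

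SREBP-1 lipogenic genes were mostly less than 2-fold apart between genotypes. Of 16 measured in the fasted state only Scd1 was 2-fold lower in KO liver and none was higher, and the median was 0.25. Of 17 in fed liver none was 2-fold apart (median -0.26, or up to 0.77 with centring on all spots). After fasting 14 of 16 were at least 2-fold lower in each genotype, with medians of -1.68 in KO and -2.17 in WT liver. Among all genes 2.10% in KO and 1.92% in WT liver were. Thrsp was at -4.80 in KO and -5.30 in WT liver, and Fasn, the fatty acid synthase gene, at -2.79 in KO and -3.54 in WT liver. In fasted WT liver, then, the lipogenic genes lay well below their fed level while Elovl2, Elovl5, Fads1 and Fads2 lay at 0.39, 0.13, 0.03 and 0.76 above theirs. The list shares Elovl6, Scd1 and Srebf1 with groups given above.

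PPARα target genes were higher after fasting in both genotypes. Of 22 measured genes 18 were at least 2-fold higher in KO and 18 in WT liver, with medians of 1.52 in KO and 1.68 in WT liver. Among all genes 2.59% in KO and 2.36% in WT liver were. Between fasted KO and fasted WT liver 2 of 23 were higher (Pdk4 at 1.56 and Cyp4a14) and 2 lower (Fgf21 at -2.36 and Creb3l3), with a median of 0.17. In fed liver 1 of 22 was higher (Angptl4 at 1.84) and 3 were lower (Cyp4a14, Vnn1 at -1.57 and Cyp4a10 at -1.39), with a median of -0.15, or up to 0.91 with centring on all spots. The Vnn1 ratio rests on a fed KO signal of 6.18 (log2) against a floor of 6.08. That of Fgf21 rests on a fasted KO signal of 6.65 against a floor of 6.04, so the sizes of both are uncertain.

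**Figure D4:**
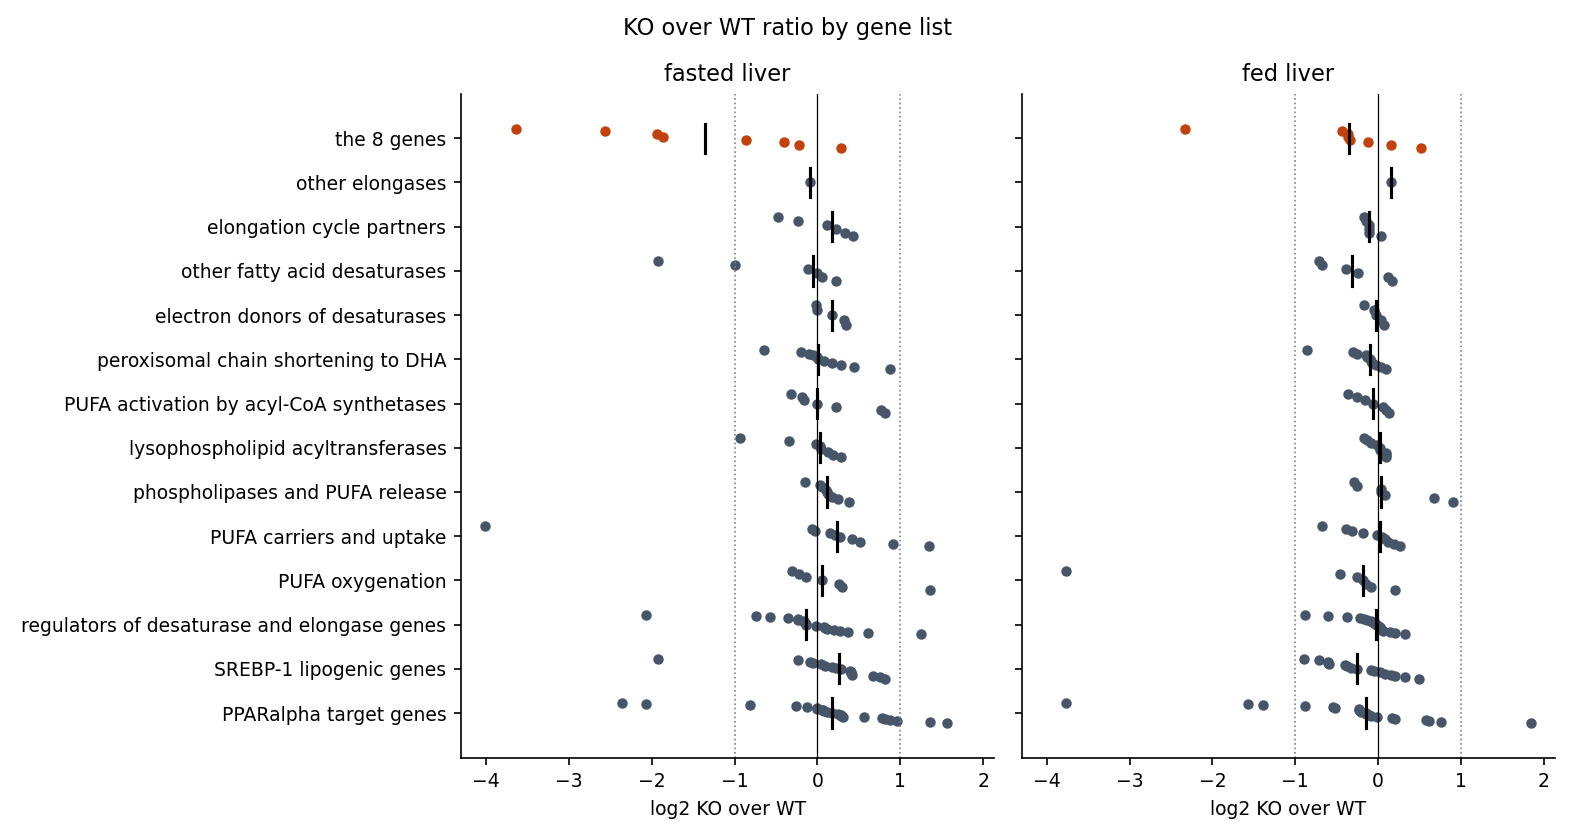
Log2 KO over WT ratio of each measured gene (points), by gene group, in fasted (left) and fed (right) liver. Black ticks are group medians, dotted lines mark 2-fold, and points carry no error since each group of mice is 1 pool. The 8 genes have the lowest median of these groups in fasted liver (-1.36), all groups being chosen with earlier results of these data known. Elovl6, the 1 measured elongase outside them, is at -0.09 there. In fed liver the median of the 8 genes is -0.35, or 0.76 with centring on all spots. The fed medians of the other groups with several measured genes lie above 0 under that centring too.

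Markers of other liver cells were read beside these differences. Summed signals of 9 Kupffer cell and macrophage genes were 19195 in fasted KO, 18385 in fasted WT, 13589 in fed KO and 18468 in fed WT liver, and all 9 were lower in fed KO than in fed WT liver, none by 2-fold (median -0.39, or 0.52 with centring on all spots). Those of 8 sinusoidal endothelial genes were 13159 in fasted KO, 13155 in fasted WT, 10046 in fed KO and 10513 in fed WT liver. Of 8 adipocyte genes, Adipoq, Plin1, Lep, Retn and Ucp1 were not well above background in any pool. The summed adipocyte signal of 2164 in fasted KO, 1166 in fasted WT, 986 in fed KO and 1134 in fed WT liver came mostly from Fabp4. None of 7 hepatocyte and none of 8 endothelial genes was 2-fold apart between genotypes in either state, against 0.791% fasted and 0.554% fed of all genes. The hepatocyte gene Apoa1, for the main protein of high-density lipoprotein, was just inside 2-fold at -0.99 fasted and was at -0.58 fed. Apoa1 and Mboat7 were named after their values were seen. From the 7 hepatocyte genes, 1 was 2-fold lower in fasted KO liver from scanner-processed signals and in the authors' table. With centring on all spots 4 hepatocyte and 1 endothelial genes were 2-fold higher in fasted KO liver, and 5 and 2 in fed KO liver. The part of cell type in the differences of Mfsd2a, Elovl2, Elovl5 and Fads2 was not tested.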

How the data were processed

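Pooled liver RNA was labelled and hybridised to 2 two-colour Agilent arrays. Spot and local background intensity values were deposited by the authors as read with Agilent Feature Extraction 10.10.1.1, per the file headers, whose grid names mouse build mm9. Its processed intensity values, also deposited, are background-subtracted and dye-normalized. Each spot's deposited log10 ratio (Cy5 over Cy3) and error come from the same software. The authors' value table holds log2 ratios within 0.005 of those, with medians of 0.00. Whether it was centred further is unknown.

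Median signals, used because the files carry medians where means had been planned, were corrected with normexp (offset 50), normalized by loess within and Aquantile between arrays (limma 3.58.1, R 4.3.3), and tested on simulated data. Control spots (3671 per array) and outlier spots (197 fasted, 216 fed) were left out. A gene was measured when at least 50% of its probe's spots were well above background in each channel compared, and the brightest probe stood for it. RefSeq accessions named 26762 of 55681 probes through a GRCm38.p6 table. No test was possible with 1 pool per group. The 8 alternatives per comparison were scanner-processed signals, an offset of 10, centring on measured genes or on all spots in place of loess, no filter on dim probes, every spot above background, the mean over probes, and the authors' table (KO over WT) or no normalization between arrays (fasted over fed). Named were all 8 genes, Creb3l3, Srebf1, Ppara, up to 4 genes per list at least 2-fold apart, and the 3 nearest genes, except that 1 listed gene is not reported here. Other genes given as ends of a range or as relatives of a gene were chosen after their values were seen. The 8 genes and all lists were chosen with earlier results of these data known.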

Additional observations from a re-analysis of the deposited data

Results flagged for a closer look

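For 4 of the 8 genes the fasted over fed difference had opposite signs in KO and WT liver, a difference between genotypes that was not tested. The KO minus the WT log2 difference was -2.23 for Elovl2, -1.42 for Elovl5, -1.58 for Fads2 and -0.50 for Fads1. The direction in KO liver was negative under all 8 alternatives for Elovl2, Elovl5 and Fads2, and for Fads1 it was 0.09 with no normalization between arrays. The direction in WT liver was positive under all 8 for all 4 genes, though not all 8 alternatives could move these values. For Fads1 it was as little as 0.03, below the SD of 0.06 between spots of probes of like brightness. An opposite direction is thus not shown for Fads1. For Elovl3 the KO over WT ratio ran in opposite directions in fasted and fed liver, with a fasted minus fed value of -0.74, also not tested. The fasted ratio of Elovl3 turned positive with either way of centring.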

How the results depend on the processing

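With 1 pool per group, 1 spot per probe and no dye swap, no value has a biological error. The technical spread between spots leaves out mice, pools and labelling, and dim signals near background, such as that of Mfsd2a in fed KO liver (6.43 against a lowest well-measured signal of 6.08, log2), also limit the ratios. No paired analysis was possible because no group has more than 1 sample. The slide as a block was not run, since both arrays lay on 1 slide. Leaving dim probes in, requiring every spot above background or averaging probes moved none of the 8 genes but Elovl1, the one with 2 probes, which moved on averaging. The other genes have 1 probe in 1 spot, so these settings could not move them. The authors' table repeats the scanner-processed ratios to within 0.005, and the 2 ways of centring differ only by a shift shared by all genes.

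Counts of all genes at least 2-fold apart moved by over 1.5 times with some settings. For KO over WT, fasted, 97 genes (44 higher, 53 lower) became 193 from scanner-processed signals, 195 in the authors' table and 956 (940 higher, 16 lower) with centring on all spots, while centring on measured genes gave 106 higher and 39 lower. For KO over WT, fed, 63 genes (18 higher, 45 lower) became 174, 175 and 3110 (3101 higher, 9 lower) by the same 3 settings, 97 with an offset of 10 and 154 with centring on measured genes (113 higher, 41 lower). For fasted over fed in KO, 552 became 1068 from scanner-processed signals and 1244 (1164 higher, 80 lower) with no normalization between arrays, and centring on all spots gave 269 higher and 354 lower. For fasted over fed in WT, 490 became 885 and 1151 (1080 higher, 71 lower) by the same settings, and 291 higher and 152 lower. For the fasted minus fed ratio, 155 became 341 from scanner-processed signals and 343 in the authors' table, and centring on all spots gave 66 higher and 124 lower. With arrays not normalized to each other the median of all genes moved by 0.43 in KO and 0.45 in WT liver.

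Of the 8 genes, 5 rather than 4 (1 of them higher) were at least 2-fold apart between fasted KO and fasted WT liver and 3 rather than 1 between fed KO and fed WT liver with centring on all spots, and 2 (scanner-processed signals) or 4 (no normalization between arrays) rather than 1 for fasting in WT liver. For fasting in KO liver 5 (scanner-processed signals) or 3 (no normalization between arrays) rather than 4 were, and for the fasted minus fed value 5 (centring on all spots) or 3 (scanner-processed signals, an offset of 10, centring on measured genes, the authors' table) rather than 4. The fasted minus fed value of Mfsd2a turned to 0.04 from scanner-processed signals and in the authors' table. The cause was not tested.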
